A study of Mus musculus with 4 samples.

Results

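The proximal tubule transporter and endocytosis genes are 33 genes chosen by symbol, out of 31053 genes counted in each library: the receptors and adaptors that take filtered protein up from the tubule fluid, and the carriers that recover phosphate, amino acids, glucose, organic acids and bicarbonate. All 33 symbols were found in both matrices. The rule uses no measured value, although the list was drawn up with earlier results of these data known. They were measured by droplet single-cell RNA sequencing (a 3′ method that tags each captured RNA with a unique molecular identifier, UMI) in whole kidneys of newborn mice, with 1 library per genotype. The control library came from the genotype Six2Cre, which the sample title spells SixCre. The other, called the floxed library, came from the genotype Six2CreTet2/3f/f, which carries the same Cre together with floxed alleles of Tet2 and Tet3, enzymes that oxidise methylated cytosine.

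By their genotype labels both groups carry Six2Cre, a recombinase driven from the promoter of a nephron progenitor gene, so that recombination is directed to progenitors and is inherited by the tubule cells they form. Stroma, endothelium, blood cells and collecting duct come from other precursors. The labels do not say how many animals a library pools. With 1 library per genotype there is no replicate, no p-value is given, and intervals reflect counting error alone. Also part of the series are 2 bisulfite sequencing samples, not analysed here.

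The proximal tubule is the first stretch of the nephron after the glomerulus, and its cells reclaim most of the filtered solutes. Megalin and cubilin on the apical membrane bind filtered proteins and are internalised through clathrin-coated pits, while sodium-coupled carriers on the brush border and exchangers on the basolateral side move small solutes. The segment is divided into an early convoluted part and a late straight part that use different carriers for the same solute. In the newborn mouse new nephrons are still forming, so immature and mature tubule cells are present together.

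The cells were clustered without the 33 genes, and classes were named from other markers, so names are given as class-like. The proximal tubule-like class was 1 cluster with 1228 control cells (6.30% of kept cells, exact 95% interval 5.96 to 6.65%) and 803 floxed cells (5.58%, 5.21 to 5.97%). Of its 14 naming markers, 10 were highest in this class, and the exceptions were Gatm, Fxyd2, Dpys and Khk. Its leading genes included Sult1d1, Kap, Keg1 and Ttr, and also Slc34a1 and Slc27a2, both among the 33. The class held 15481061 control and 7455876 floxed UMIs, with medians of 9281.5 and 7144 UMIs per cell and of 7.35% and 6.88% mitochondrial UMIs. In all, 19493 control and 14393 floxed cells were kept, the libraries shared 174 cell barcodes, and both matrices list more barcodes than the 10000 cells loaded. Committed nephron markers were also read in the class, at a sum over 14 markers of 943 CPM (UMIs of a gene per 1000000 UMIs of the class) in control and 992 CPM in floxed cells. Where 2 values are given side by side without a label, the control comes first. Cdh6, an early nephron cadherin, was the highest of them at 263 and 265 CPM. Tet3 UMIs in the class stood at 67.0 and 39.0 CPM and Tet2 UMIs at 38.4 and 35.1 CPM. A 3′ tag need not lie in a deleted stretch, so these values do not check the genotype.

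Of the 33 genes, 29 had their highest level, averaged over the 2 libraries, in proximal tubule-like cells. The summed level of all 33 was 3228 CPM in control and 2893 CPM in floxed cells. Among committed nephron-like cells the sums were 252 and 146 CPM. The 4 exceptions were Dab2, Slc7a7 and Slc7a8, which were highest in macrophage-like cells, and Slc9a3, which was highest in cells named for the loop of Henle and the distal tubule. Slc9a3 encodes the apical sodium-hydrogen exchanger, and it was read at 39.2 and 31.6 CPM in those loop and distal cells against 7.69 and 5.23 CPM in proximal tubule-like cells. Slc34a3, the minor renal phosphate cotransporter, gave 11 control and 2 floxed UMIs in the whole class, too few for a fold to be given. Since the cells were clustered on other tubule genes, these class levels are a description, with no test.

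**Figure D1:**
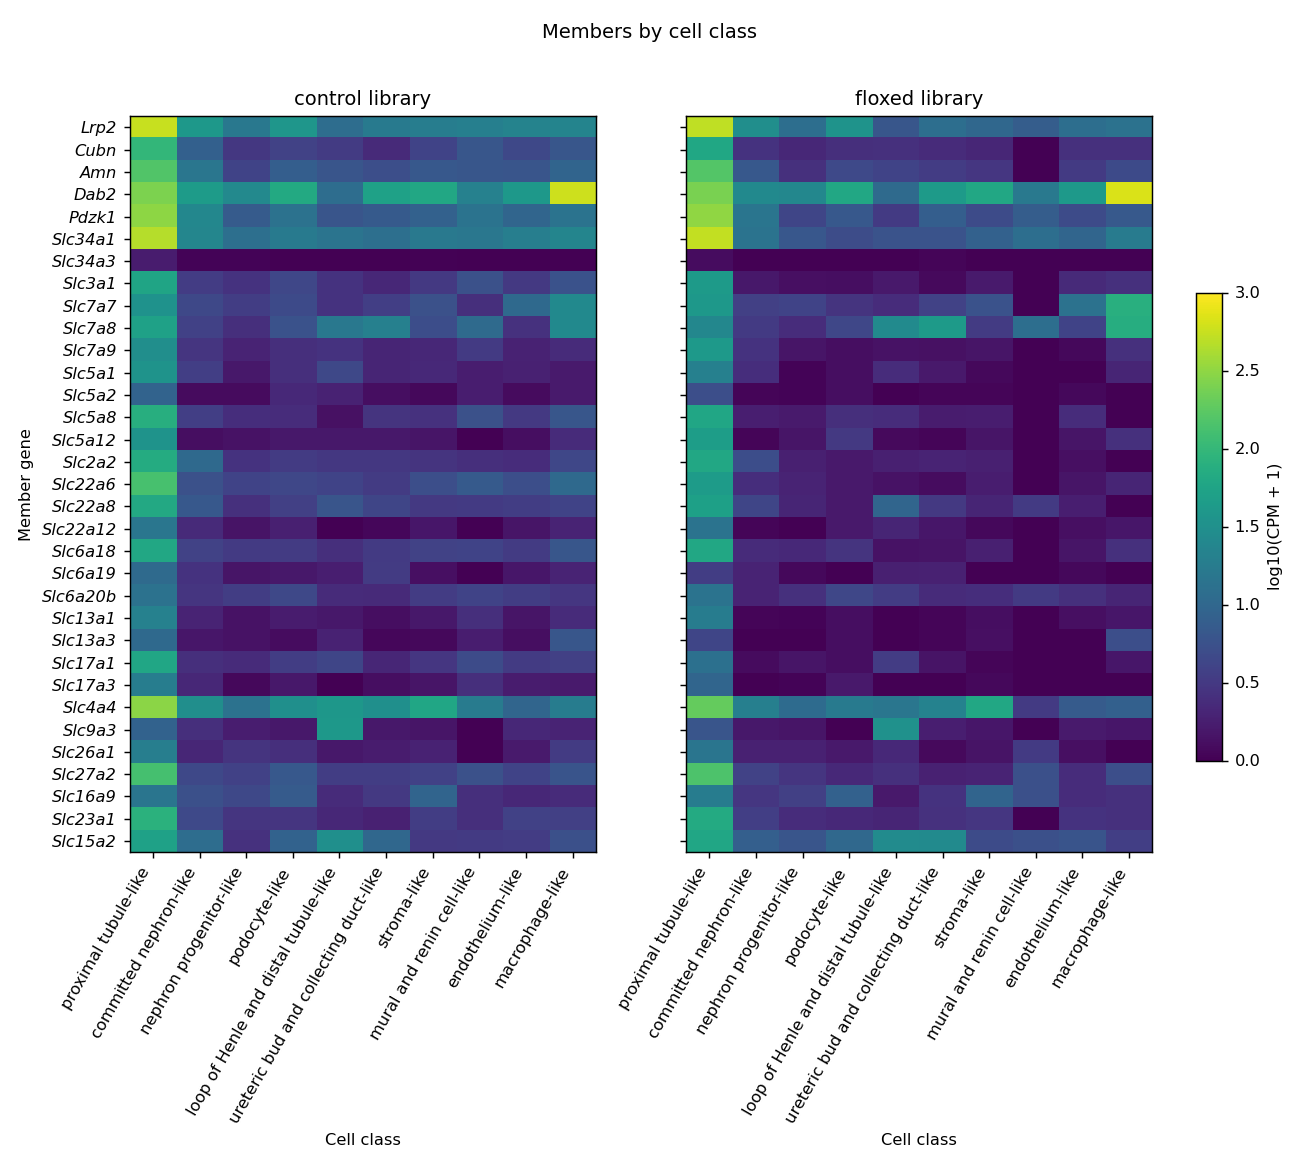
Level of each of the 33 genes (rows, on a scale of log10 of CPM plus 1) in 10 cell classes (columns), control library on the left and floxed library on the right. The proximal tubule-like column is the brightest for most rows, while Dab2, Slc7a7 and Slc7a8 are also bright in macrophage-like cells and Slc9a3 in loop and distal tubule-like cells.

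Levels in cells that should lack most of the genes gave a measure of free RNA carried between droplets. Among the 32 genes with at least 5 CPM in the control class, the median level in endothelium-like cells was 3.47% of that in proximal tubule-like cells, and in stroma-like cells 3.39%. Over the 29 such genes of the floxed library the values were 2.11% and 1.70%. After each cell was thinned to 2000 UMIs, Lrp2 was detected in 48.4% of control proximal tubule-like cells (45.5 to 51.4%) and 53.0% of floxed ones (49.4 to 56.6%), against 4.92% and 2.63% of endothelium-like cells. Without thinning, the Lrp2 shares in the tubule cells were 77.7% and 82.1%. Among the cells that entered the thinning, median depths were 9676 and 7343.5 UMIs in tubule cells and 4673 and 3566 UMIs in endothelium-like cells.

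The endocytic receptors were among the most abundant transcripts of the group. Lrp2, which encodes megalin, stood at 555 CPM in control and 522 CPM in floxed cells. Cubn encodes cubilin, the receptor for intrinsic factor and albumin that has no membrane anchor of its own, and it was read at 96.3 and 60.8 CPM. Amn, the anchoring subunit of cubilin, was read at 151 CPM in control and 156 CPM in floxed cells. Dab2, the clathrin adaptor that binds megalin's tail, stood at 257 and 250 CPM in tubule cells, and at 587 and 684 CPM in macrophage-like cells. Lrp2, Amn and Dab2 were thus at nearly the same level in both libraries, and Cubn was the receptor gene that differed most.

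The phosphate carriers and their scaffold were also high. Slc34a1, the main sodium-phosphate cotransporter of the brush border, stood at 468 CPM in control and 532 CPM in floxed cells. Pdzk1, a scaffold that holds brush border carriers in place, was read at 306 and 313 CPM. Slc4a4, the basolateral sodium-bicarbonate cotransporter, was read at 300 CPM in control and 195 CPM in floxed cells. Slc4a4 was also present in stroma-like cells, at 58.4 and 61.6 CPM.

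Carriers of amino acids and peptides were read at lower levels. Slc3a1 and Slc7a9, the heavy and light subunits of the cystine and basic amino acid carrier, were read at 55.4 and 29.4 CPM in the control class. In the floxed class their order was closer, at 41.7 CPM for Slc3a1 and 40.9 CPM for Slc7a9. Slc6a18 and Slc6a19, neighbouring genes on chromosome 13 for neutral amino acid carriers, lay far apart in level. Slc6a18 was read at 62.7 CPM in control and 62.6 CPM in floxed cells, and Slc6a19 at 9.95 and 2.55 CPM. Slc7a7, a light subunit of the basolateral basic amino acid exchanger, was read at 33.1 and 38.4 CPM. Slc15a2, a peptide carrier, was read at 50.6 and 58.5 CPM, and Slc6a20b, a further gene of the Slc6 family, at 12.5 and 13.0 CPM.

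Glucose and organic acid carriers covered a wide range. The late-segment glucose carrier Slc5a1 was read at 33.8 CPM in the control class, above the early-segment carrier Slc5a2 at 8.01 CPM. The floxed class gave 19.2 CPM for Slc5a1 and 4.29 CPM for Slc5a2. Slc2a2, the basolateral glucose carrier, stood at 68.7 and 61.8 CPM. The sodium-coupled lactate carriers Slc5a8 and Slc5a12 were read at 75.4 and 33.7 CPM in the control and at 57.9 and 45.9 CPM in the floxed class. Slc22a6 and Slc22a8, neighbouring genes on chromosome 19 for the organic anion carriers of the basolateral side, were read at 133 and 64.4 CPM in the control class, and at 43.9 and 49.2 CPM in the floxed class. Slc27a2, a fatty acid carrier and acyl-CoA synthetase, was read at 130 and 144 CPM, and the vitamin C carrier Slc23a1 at 82.4 and 67.7 CPM. Sparser carriers were Slc22a12 (216 and 96 UMIs), Slc16a9 (13.8 and 17.3 CPM), Slc26a1 (18.2 and 13.7 CPM) and Slc13a1 (19.8 and 17.3 CPM).

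**Figure D2:**
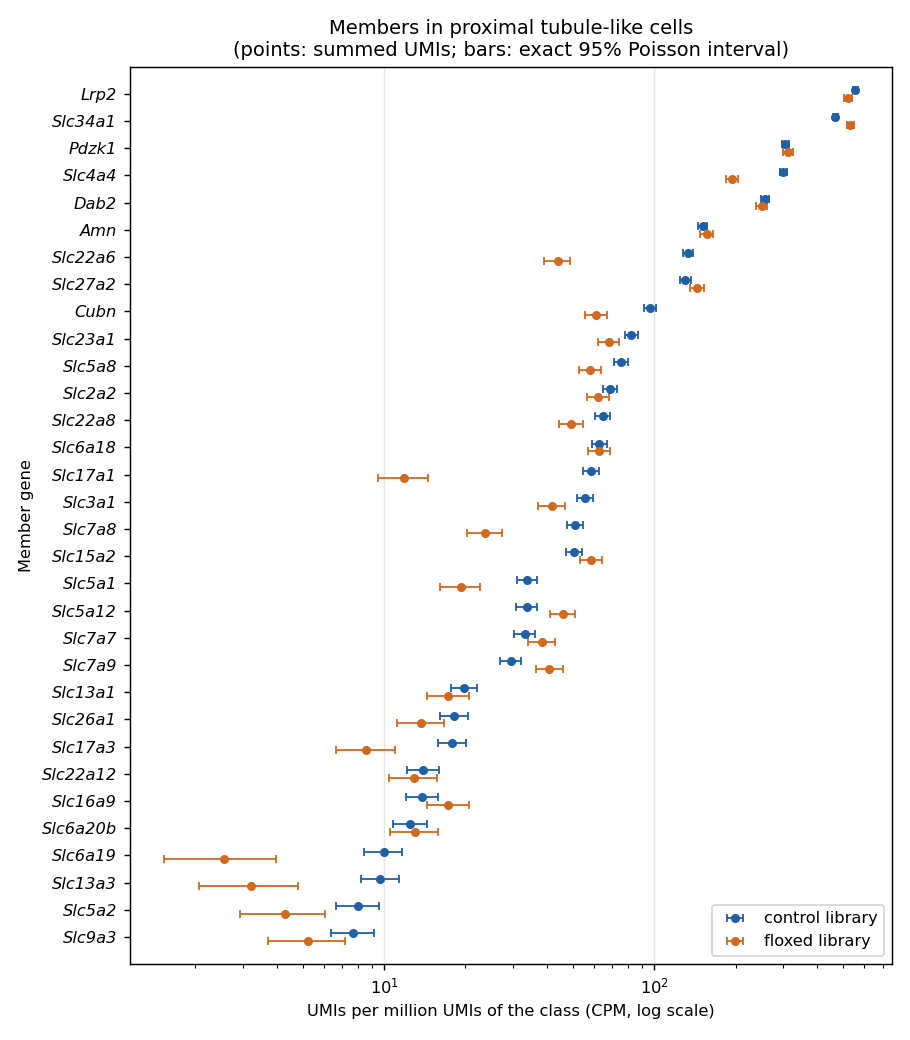
Level of 32 of the 33 genes in proximal tubule-like cells, in CPM on a log axis, with points for the control and floxed libraries and bars for the exact 95% Poisson interval of the summed UMIs. Slc34a3 is left out because it had 11 and 2 UMIs, and the widest gaps between the libraries are those of Slc17a1, Slc22a6, Slc7a8, Slc6a19 and Slc13a3.

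The first comparison asked when each gene came on within the class. Cells with at least 2000 UMIs (1125 control and 756 floxed, leaving out 103 and 47) were ordered by the mean log level of 26 metabolic genes, none of them among the 33, and divided at the same scores into 5 bins. The summed level of the 33 genes was 662, 1454, 2561, 3745 and 6276 CPM from the lowest to the highest bin of the control library. In the floxed library the sums were 758, 1430, 2220, 3317 and 5255 CPM. The summed level was therefore higher in each further bin of both libraries. Depth and mitochondrial share also moved along the order, from medians of 9301.5 UMIs and 6.55% in the lowest control bin to 11840 UMIs and 9.92% in the highest, and from 6650.5 UMIs and 5.92% to 9807 UMIs and 8.16% in the floxed library. Their part in the order was not tested.

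A gene was called early where its level in the lowest bin was at least 0.5 of that in the highest in both libraries, and late where it was under 0.2 in both. By this rule 24 genes were late, 9 were intermediate and none was early. Only the listed genes were classed, so the share of all genes that would be late is not known. Slc34a3 was counted as late with only 4 control and 1 floxed UMIs in the highest bins. Apart from it, the lowest share in the control library was that of Slc5a12, the lactate carrier, with 0.401 CPM (1 UMI) in the lowest control bin and 86.3 CPM (326 UMIs) in the highest. In the floxed library Slc5a12 had 3.70 CPM in the lowest bin and 87.4 CPM in the highest. It had 1 and 4 UMIs in the lowest bins and reached the same level in the highest bin of both libraries. In the 4th control bin it was at 27.8 CPM, against 70.0 CPM in the floxed one.

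Several brush border and basolateral carriers shared this late pattern. For Slc3a1 the control bins read 2.41, 15.2, 22.0, 59.7 and 143 CPM from lowest to highest. Its floxed bins read 6.48, 11.7, 10.3, 41.7 and 107 CPM, so that in both libraries the largest steps in CPM were those into the upper 2 bins. As a fold, the largest control step was from the lowest to the 2nd bin. Slc34a1 had 40.1 CPM in the lowest control bin and 1103 CPM in the highest, the lowest being 3.64% of the highest (2.95 to 4.44%). In the floxed library Slc34a1 went from 68.5 to 1123 CPM, or 6.10% (4.77 to 7.70%). Slc27a2 stood in the lowest bin at 3.21% of its highest bin in the control and at 9.67% in the floxed library. Slc22a6 stood at 3.27% and 4.47%, and Slc26a1, a sulfate and oxalate exchanger, at 3.18% and 11.2%.

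Megalin and its partners did not share one onset. Dab2 in the lowest bin was already at 39.0% of its highest bin in the control (34.3 to 44.4%) and at 34.5% in the floxed library (28.2 to 41.9%). Lrp2 was at 12.3% (10.9 to 13.8%) and 18.9% (16.1 to 22.2%), and Amn at 17.2% and 12.9%. Cubn was lowest at the start, at 6.90% (4.65 to 9.89%) in the control and 10.8% (5.65 to 18.9%) in the floxed library. Among these 4 genes the intervals of Dab2 lay above the other 3 in both libraries. Those of Lrp2, Cubn and Amn all overlapped one another in the floxed library, so their order is not resolved there.

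The 9 intermediate genes were Dab2, Pdzk1, Slc7a8, Slc5a1, Slc2a2, Slc22a12, Slc6a19, Slc16a9 and Slc15a2. The flattest was Slc16a9, a carrier of the monocarboxylate family, whose lowest bin was at 40.7% (22.8 to 69.3%) and 52.0% (25.7 to 98.3%) of its highest. Its lowest bins held 7.22 and 12.0 CPM, and stroma-like cells held 8.26 CPM as a mean of the libraries. A level like that of its lowest bins was thus also read outside the tubule. Slc15a2 was at 33.1% and 25.8%, and Slc2a2 at 23.5% and 23.4%. Slc6a19 was at 20.8% in the control library. Its floxed value of 75.4% rests on 3 UMIs in the lowest bin and 7 in the highest, and its interval runs from 12.6 to 330%. Across the 29 genes with at least 20 UMIs in the highest bin of both libraries, the order of onset correlated between libraries with a Spearman rho of 0.76, a description in which the genes share cells and the axis.

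**Figure D3:**
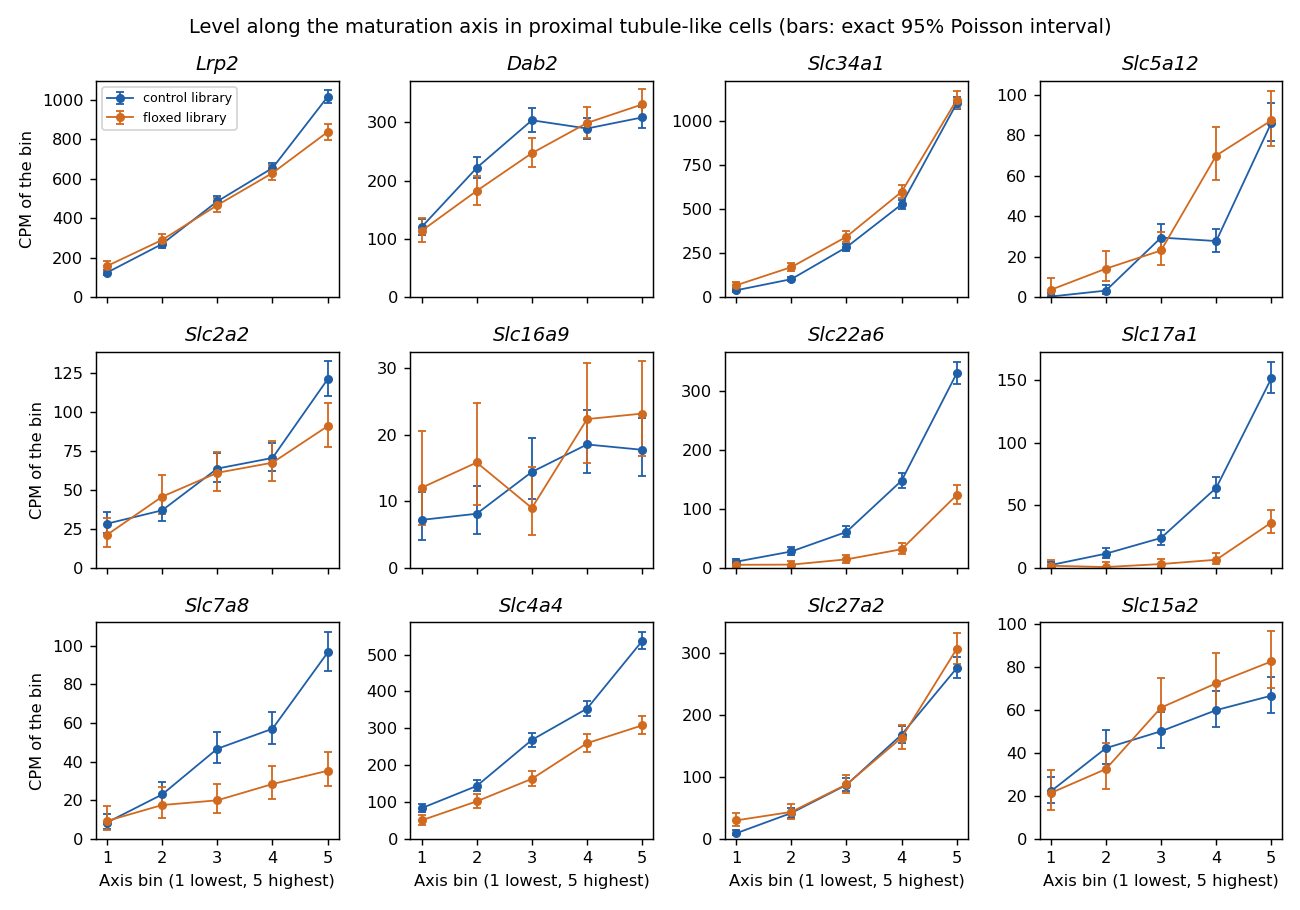
Level of 12 of the genes, in CPM, in 5 bins of proximal tubule-like cells from lowest to highest metabolic gene score, for the control and floxed libraries, with exact 95% Poisson intervals as bars. Dab2 begins high and flattens, Slc34a1 and Slc5a12 climb from near 0 to the same top level in both libraries, and Slc22a6, Slc17a1, Slc7a8 and Slc4a4 end lower in the floxed library.

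The number of late genes depended on the cells held by the class and on the axis. With no removal of doublets the class shrank to 701 control and 431 floxed cells, 5 genes were late, and Dab2 and Slc15a2 were early. With the 33 genes allowed among the clustering genes it held 802 and 587 cells, 10 genes were late and Dab2 was early. An order by brush border enzymes in place of metabolic genes also gave 10 late genes, with Dab2 early. Across all 11 settings 4 genes were late in every one, namely Slc3a1, Slc22a6, Slc13a3 and Slc17a1. For none of these settings is the share of all genes that would be late known. Slc13a3 is sparse, with 2 and 0 UMIs in the lowest bins and 92 and 19 UMIs in the highest. Over these settings the lowest bin of Slc17a1 lay between 0.06% and 16.7% of its highest in the control library, and that of Dab2 between 26.2% and 85.0%.

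Before the class itself, committed nephron-like cells held little of most of the genes. Lrp2 stood there at 39.2 CPM in control and 29.0 CPM in floxed cells, Dab2 at 43.1 and 25.3 CPM, and Slc4a4 at 29.0 and 18.7 CPM. Such levels of Dab2 and Slc4a4 were not particular to the nephron. Stroma-like cells read Dab2 at 61.4 and 61.8 CPM and Slc4a4 at 58.4 and 61.6 CPM, and endothelium-like cells read Dab2 at 38.8 and 40.6 CPM. Lrp2 was at 36.8 and 34.1 CPM in podocyte-like cells. Slc3a1 was read at 2.39 and 0.556 CPM, and Slc5a12 at 0.285 and 0.111 CPM. The median over the genes was 6.82% of the tubule level in the control and 4.35% in the floxed library, set beside the 3.47% and 2.11% in endothelium-like cells.

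Sequence before the transcription starts was compared next. Proximal tubule genes are textbook targets of the hepatocyte nuclear factors HNF1 and HNF4, so the 250 bases before each RefSeq start (GRCm38) were searched on both strands for the letters GTTAAT and ATTAAC with 1 base between them (HNF1) and for CAAAGTCCA (HNF4). The table held 38 promoters for 28 of the genes, and none was held for Slc5a2, Slc5a12, Slc6a18, Slc13a1 and Slc23a1. The promoters of 4 genes are shown because these are genes on which the onset and genotype results turn. Capitals mark matches, with up to 3 mismatches in the 12 compared letters of HNF1 or up to 1 mismatch in the 9 of HNF4. The Slc34a1 window is chr13:55399398-55399647, plus strand, with an HNF1 match from 96 to 84 bases before the start. The Slc3a1 window is chr17:85028097-85028346, plus strand, with an exact HNF4 match from 39 to 31 bases before the start and an HNF1 match from 24 to 12 bases before it. The Slc17a1 window is chr13:23870023-23870272, plus strand, before the other of its 2 starts in the table, with a pair of HNF1 matches that overlap each other, from 61 to 49 and from 54 to 42 bases before the start. The Slc22a6 window is chr19:8617746-8617995, plus strand, and holds neither set of letters.
Slc34a1: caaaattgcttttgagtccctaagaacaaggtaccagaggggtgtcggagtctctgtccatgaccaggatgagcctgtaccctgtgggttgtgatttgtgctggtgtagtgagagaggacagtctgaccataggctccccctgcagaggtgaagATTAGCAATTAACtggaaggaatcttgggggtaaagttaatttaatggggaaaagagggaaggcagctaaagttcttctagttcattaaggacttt
Slc3a1: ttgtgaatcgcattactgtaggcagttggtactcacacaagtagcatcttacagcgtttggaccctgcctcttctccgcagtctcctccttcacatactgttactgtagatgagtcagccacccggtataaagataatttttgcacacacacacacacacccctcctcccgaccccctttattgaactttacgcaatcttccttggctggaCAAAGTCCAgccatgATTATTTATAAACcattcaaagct
Slc17a1: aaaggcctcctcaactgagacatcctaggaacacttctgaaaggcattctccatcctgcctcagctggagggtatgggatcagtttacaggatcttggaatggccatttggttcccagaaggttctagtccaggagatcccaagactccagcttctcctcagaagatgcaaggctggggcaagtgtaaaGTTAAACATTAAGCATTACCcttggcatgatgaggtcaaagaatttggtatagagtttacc
Slc22a6: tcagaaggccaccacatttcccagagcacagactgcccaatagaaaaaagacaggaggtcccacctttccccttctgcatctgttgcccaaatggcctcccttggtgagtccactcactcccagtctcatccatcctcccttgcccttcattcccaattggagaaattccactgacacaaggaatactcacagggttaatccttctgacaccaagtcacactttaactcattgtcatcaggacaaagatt

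HNF1 letters with up to 3 mismatches were in 13 of the 38 promoters (34.2%), belonging to 11 genes, against 7.58% of all 32851 promoters. With up to 2 mismatches they were in 3 of 38 (7.89%, from Slc17a1 and Slc7a9) against 1.24%, and with at most 1 mismatch in none. HNF4 letters with 1 mismatch allowed were in 8 of 38 (21.1%) against 7.05%, and exact HNF4 letters were in 1, that of Slc3a1 (2.63%), against 0.384%. The mismatch allowances were picked after several had been tried, and some of the 38 windows overlap because a gene has several starts. Median GC content was 51.6% in the 38 windows and 52.4% in all. A match is a description of letters and not of a bound site. Of the 4 genes late in every setting, Slc3a1, Slc13a3 and Slc17a1 had a match to at least 1 of the letter sets and Slc22a6 had none. Over the 28 genes with promoters, 11 had HNF1 letters and 7 had HNF4 letters at these allowances. Of the genes with a match, Dab2 and Slc7a8 were intermediate by the onset rule and the rest were late. Intermediate genes without a match were Pdzk1, Slc5a1, Slc2a2, Slc22a12, Slc6a19, Slc16a9 and Slc15a2. Late genes with a promoter but no match were Slc22a6, Slc6a20b, Slc4a4, Slc9a3 and Slc27a2. A link to onset was not tested.

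The next comparison asked whether the genes differed between segments of the tubule. Among cells of the upper 2 bins, thinned to 2000 UMIs, those with a UMI of the early-segment glucose carrier Slc5a2 and none of the late-segment carrier Slc5a1 were set against the reverse. These anchors are sparse, and the contrast rested on 6 against 33 control cells and 2 against 19 floxed cells. No cell had a UMI of both. A gene was counted where the interval of its ratio left out 1 on the same side in both libraries, a rule set after values had been seen. Of the 31 genes compared, 3 were higher with Slc5a2 and none with Slc5a1. Only the listed genes were compared, so the share of all genes that would pass is not known. The intervals pool the UMIs of these few cells and do not cover variation between cells.

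Slc5a12 showed the widest gap, at 391 CPM in the Slc5a2 cells and 17.1 CPM in the Slc5a1 cells of the control, a ratio of 22.9 (11.3 to 49.5). In the floxed library Slc5a12 was at 278 against 26.9 CPM, a ratio of 10.3 (2.15 to 43.6) from 4 and 6 UMIs. Slc34a1 was at 1563 against 944 CPM in the control and 1601 against 856 CPM in the floxed library. Slc22a8 was at 293 against 108 CPM in the control and at 278 against 40.4 CPM in the floxed library, the last from 4 and 9 UMIs. The Slc5a2 cells also lay higher on the metabolic axis, with median scores of 0.93 against 0.66 in the control and 0.89 against 0.70 in the floxed library, and at median depths of 12552 against 17554 UMIs and 7184.5 against 8257 UMIs. Slc34a1, Slc5a12 and Slc22a8 were each at their highest level in the top bin of that axis in both libraries, and the part of axis position and depth in this contrast was not tested. With all cells of the class in place of the upper 2 bins, Slc5a12 alone passed.

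A wider contrast pooled 3 anchors on each side, with Slc5a2, Slc5a12 and Slc2a2 for the early side and Slc5a1, Slc5a8 and Slc16a9 for the late side. It compared 81 with 77 control cells and 47 with 63 floxed cells, leaving out 24 and 15 cells with UMIs of both sides. The other 27 genes then divided into 5 higher on the early side in both libraries, 9 higher on the late side and the rest on neither. Here too the share of all genes that would pass is not known, and the intervals do not cover variation between cells. The early set was Slc34a1, Slc7a7, Slc22a8, Slc13a1 and Slc4a4. The late set was Cubn, Amn, Pdzk1, Slc3a1, Slc22a12, Slc6a18, Slc17a1, Slc27a2 and Slc23a1. Slc34a1 and Slc22a8 passed on the early side with both choices of anchors. These choices are not independent, because the wider sides include Slc5a2 and Slc5a1 and draw on cells of the same bins. The wider early side also adds Slc5a12, the gene with the widest gap between the single-anchor cells. Passing with both is therefore not separate evidence for either gene.

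On the early side, Slc7a7 stood at 96.2 against 36.2 CPM in the control, a ratio of 2.66 (1.92 to 3.72), and at 96.2 against 35.7 CPM in the floxed library, a ratio of 2.69 (1.66 to 4.46). Slc13a1, the sodium-sulfate cotransporter, was at 53.4 against 25.7 CPM and 45.6 against 20.6 CPM. With the single anchors Slc13a1 was not on the early side, at 0 UMIs in the 6 Slc5a2 cells and 23 UMIs in the 33 Slc5a1 cells of the control, where the upper end of the early-to-late ratio was 1.71. Over all control cells of the class it had 0 UMIs against 27, and that upper end was 0.865. Slc4a4 was at 711 against 403 CPM in the control and 390 against 285 CPM in the floxed library. Ratios of Slc7a7 were thus alike in the libraries, while that of Slc4a4 was 1.76 (1.59 to 1.96) in the control and 1.37 (1.13 to 1.66) in the floxed library.

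On the late side, Slc17a1 had the widest gap, at 180 CPM in late-anchor cells and 65.4 CPM in early-anchor cells of the control, a ratio of 2.76 (2.16 to 3.55). Floxed cells gave 45.4 against 6.75 CPM for Slc17a1, from 33 and 4 UMIs. Slc3a1 was at 161 against 88.0 CPM in the control and 131 against 48.9 CPM in the floxed library. Slc27a2 was at 315 against 174 CPM and 370 against 160 CPM. Slc22a12, the urate exchanger, had a ratio of late to early of 2.28 in the control, from 52 and 20 UMIs, and of 3.12 in the floxed library, from 23 and 6 UMIs. Lrp2 lay on opposite sides in the libraries, at a ratio of early to late of 1.11 (1.03 to 1.20) in the control and 0.875 (0.776 to 0.987) in the floxed library. Median depths of the early and late sides were 11927 and 13879 UMIs in the control and 8857 and 8906 UMIs in the floxed library, and median axis scores were 0.71 and 0.66 and then 0.65 and 0.71. With the single anchors in the same bins, the early-to-late ratio of Slc3a1 was 1.28 (0.708 to 2.16) in the control. In the floxed library that ratio was 3.10 (0.772 to 9.27). Cubn, Pdzk1 and Slc23a1 were above 1 there in the control and below 1 in the floxed library, all with intervals that included 1. Of the late set, only Slc17a1 and Slc27a2 had single-anchor intervals on the late side there, and only in the control.

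**Figure D4:**
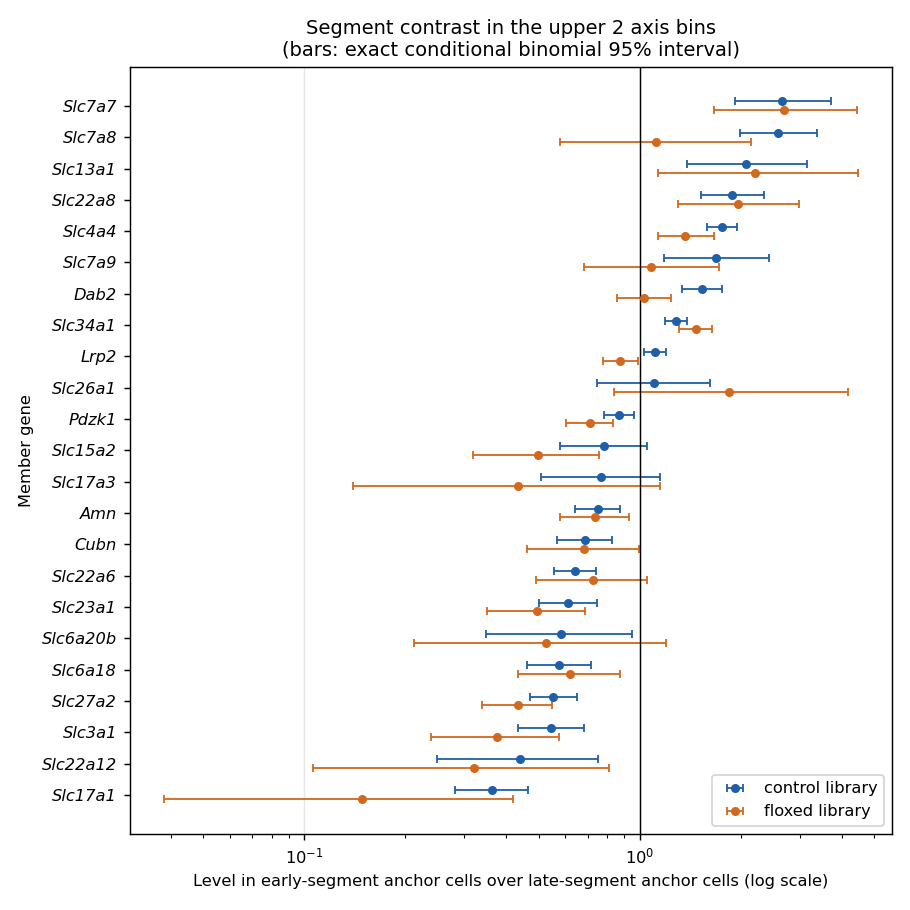
Ratio of the level in early-anchor cells to that in late-anchor cells (log axis, 3 anchors on each side, upper 2 axis bins) for the genes plotted, with points for the control and floxed libraries and bars for exact conditional binomial 95% intervals. Slc7a7, Slc13a1, Slc22a8, Slc4a4 and Slc34a1 lie to the right of 1 in both libraries, and Slc17a1, Slc22a12, Slc3a1 and Slc27a2 lie farthest to the left.

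The last comparison set the floxed class against the control class. A difference was counted where the higher library had at least 25 CPM and the exact 95% interval of the ratio lay wholly beyond 1.5-fold. Of the 33 genes 22 reached the minimum level, and of these none was higher in the floxed library and 3 were lower. Over all 5461 genes tested by the same rule 2.07% were higher and 2.03% were lower. The median log2 ratio of the 22 genes was -0.12, with 8 above 0 and 14 below, and that of all genes tested was -0.02.

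Slc17a1, a urate and phosphate carrier of the apical membrane (chr13:23867624-23895730, GRCm38), was the lowest of them. It stood at 58.5 CPM (905 UMIs) in the control and 11.8 CPM (88 UMIs) in the floxed class, a ratio of 0.202 (0.160 to 0.252), or 4.95-fold lower. Its level in the highest bin was 151 CPM in control and 36.3 CPM in floxed cells. In the lower bins of the floxed library it was read at 1.85, 0.833, 3.22 and 6.64 CPM, against 2.41, 11.5, 24.0 and 64.0 CPM in the control. Floxed cells were below control cells from the 2nd bin on. The lowest bin held 6 and 2 UMIs, with overlapping intervals, and does not tell the libraries apart. Its control level was close to the 2.31 CPM of control endothelium-like cells, while floxed endothelium-like cells held 0 UMIs of Slc17a1.

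Slc22a6, the organic anion carrier that takes up para-aminohippurate and many drugs from blood (chr19:8617996-8628299), stood at 133 CPM (2063 UMIs) in the control and 43.9 CPM (327 UMIs) in the floxed class. The ratio was 0.329 (0.292 to 0.370), or 3.04-fold lower. In bins from lowest to highest the control read 10.8, 28.1, 61.4, 149 and 331 CPM and the floxed library 5.56, 5.83, 14.8, 32.0 and 124 CPM. After thinning, 14.8% of control tubule cells (12.7 to 17.0%) and 4.89% of floxed ones (3.47 to 6.68%) had a Slc22a6 UMI, against 1.15% of control endothelium-like cells and 0 of 1370 floxed ones, which allows a share of up to 0.219% by the limit of 3 counts, at the depths given above. Without thinning the tubule shares were 38.8% and 17.3%. Its chromosomal neighbour Slc22a8 (chr19:8591254-8611835) had a ratio of 0.764 (0.676 to 0.862).

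Slc7a8, the light subunit of a basolateral neutral amino acid exchanger (chr14:54722215-54781886), stood at 50.8 CPM in control and 23.6 CPM in floxed cells. The ratio was 0.464 (0.392 to 0.547), or 2.15-fold lower. In the lowest bin Slc7a8 was at 8.42 and 9.26 CPM, from 21 and 10 UMIs, a ratio of 1.10 (0.462 to 2.44). The 2nd bin gave a ratio of 0.762 (0.441 to 1.27). From the 3rd bin on, at 46.7 against 19.9 CPM there, the interval of the ratio lay below 1. Levels in the highest bin were 96.6 and 35.3 CPM. The intervals of the lowest 2 bins also held the whole-class ratio, so a change of the gap along the axis was not shown.

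Other carriers of the floxed class were lower but fell short of the rule. Slc4a4 had a ratio of 0.648 (0.611 to 0.688), Cubn of 0.631 (0.567 to 0.701) and Slc5a1 of 0.568 (0.469 to 0.684). Below the minimum level, Slc6a19 had a ratio of 0.256 (0.150 to 0.414), Slc13a3, a dicarboxylate carrier, of 0.332 (0.206 to 0.513) and Slc17a3, an apical urate and organic anion carrier next to Slc17a1, of 0.481 (0.361 to 0.634). Slc13a3 was read at 9.69 and 3.22 CPM and Slc17a3 at 17.8 and 8.58 CPM. With no minimum level these 3 passed, which made 6 lower genes against 1.76% of 19094 genes lower and 1.34% higher.

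Among the 8 genes above 0 on the log2 scale, none passed the rule. Slc7a9 was at 29.4 CPM in control and 40.9 CPM in floxed cells, a ratio of 1.39 (1.20 to 1.61), and Slc5a12 had a ratio of 1.36 (1.18 to 1.56). Slc34a1 had a ratio of 1.14 (1.09 to 1.18), which ranged from 0.949 to 1.17 over the alternatives. Slc15a2 had a ratio of 1.16 (1.03 to 1.30) and Slc27a2 of 1.10 (1.02 to 1.19), and Slc7a7 of 1.16 (0.998 to 1.34). The intervals of Slc6a18, at 1.00 (0.893 to 1.12), of Amn, at 1.03 (0.964 to 1.11), of Pdzk1, at 1.02 (0.973 to 1.08), and of Dab2, at 0.972 (0.919 to 1.03), included 1. Ratios of chromosomal neighbours had intervals that did not overlap in the pair Slc6a18 and Slc6a19 and the pair Slc22a6 and Slc22a8. The same held for the neighbours Slc17a1 and Slc17a3, at ratios of 0.202 and 0.481.

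Within the highest bin alone, 27 of the genes reached the minimum level, none was higher in the floxed library and 5 were lower, beside 2.05% and 2.81% of all genes tested there. The 5 were Slc17a1, Slc22a6, Slc7a8, Slc17a3 and Slc4a4. Slc4a4 in this bin stood at 537 CPM in control and 308 CPM in floxed cells, a ratio of 0.573 (0.522 to 0.629). Slc17a3 stood at 43.4 and 18.4 CPM. Slc7a9 was again the highest ratio, at 1.68 (1.33 to 2.11), short of the rule.

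**Figure D5:**
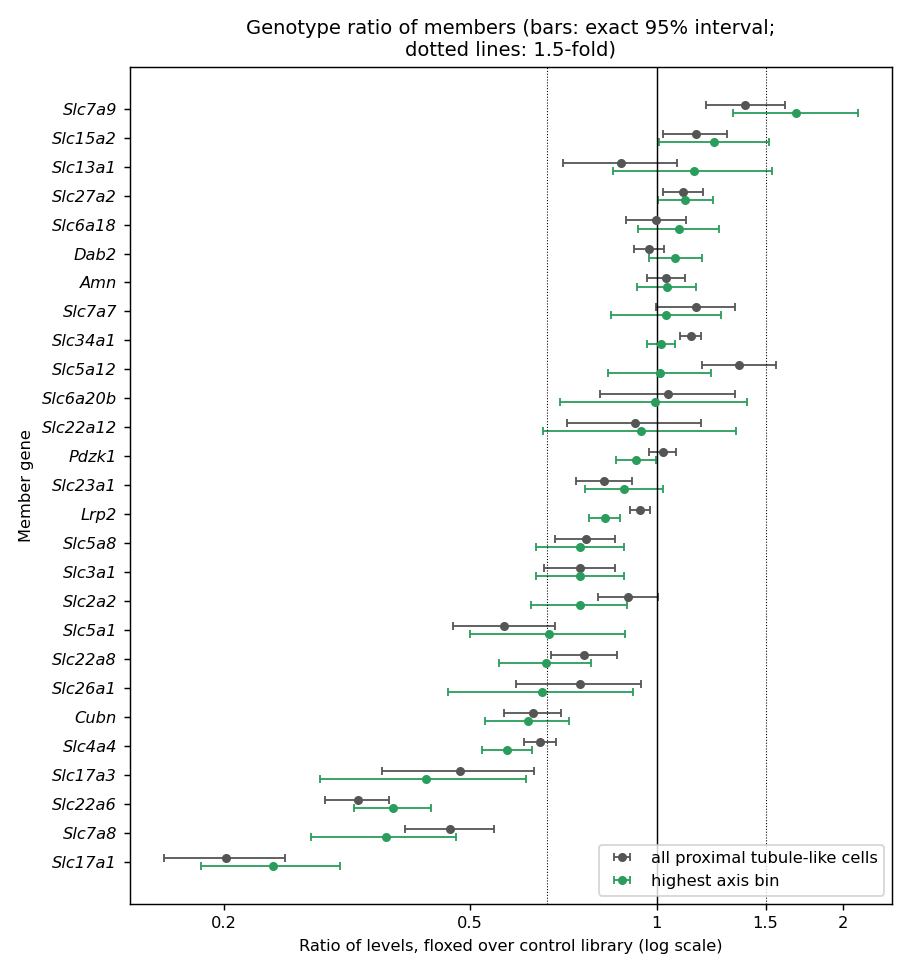
Ratio of the floxed to the control level (log axis) for 27 of the genes, with one set of points for all proximal tubule-like cells and the other for the highest axis bin, bars for exact 95% intervals and dotted lines at 1.5-fold either way. Slc17a1, Slc7a8, Slc22a6 and Slc17a3 lie wholly below the lower dotted line in both sets, and no gene lies wholly above the upper one. Over all cells of the class Slc17a3 was under the minimum level and is not counted by the rule.

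Measures that differed between the libraries beside these ratios were depth, given above, and RNA of other cells. The 9 erythroid markers summed to 1808 CPM in control and 5092 CPM in floxed tubule cells, led by Hbb-bs, and no marker was at 0. The 12 endothelial markers summed to 180 and 112 CPM, with none at 0. Their part in the ratios was not tested. With the endothelium-like level of each library subtracted, and with the 5 bins weighted equally, 3 genes were lower by the rule. These alternatives have no interval of their own, and no erythroid-like level was subtracted. They do not test the part of depth or of RNA of other cells.

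Genes of the same functions that are not among the 33 were read for comparison, beside the 2.07% of all genes higher and 2.03% lower by the rule in this class. Of 18 genes of the endocytic machinery, such as clathrin and its adaptors, 13 reached the minimum level and none passed the rule in either direction, with a median log2 ratio of -0.06. Of 43 further transporters 21 reached it, none was higher and 2 were lower, with a median of -0.22. These were Slc51b, a subunit of the basolateral organic solute carrier, at 56.6 and 22.4 CPM, and Abcc2, an apical organic anion pump, at 39.1 and 18.5 CPM. Of 18 brush border proteins 14 reached it, none was higher and 3 were lower, with a median of 0.12. They were the protease subunits Mep1a (346 and 123 CPM) and Mep1b (27.4 and 13.9 CPM) and the protocadherin Cdhr5 (48.7 and 26.7 CPM). Of 8 nuclear factors of the tubule 5 reached it and none passed, with a median of -0.08.

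The 26 metabolic genes of the axis divided, with 18 at the minimum level, 3 higher and 3 lower. Ttr, Keg1 and Acy3 were higher in the floxed class, at 105 and 242 CPM, 226 and 425 CPM and 87.5 and 151 CPM. Miox, the enzyme that oxidises myo-inositol, was lower at 61.7 and 9.39 CPM, as were Gatm, a creatine synthesis enzyme, at 114 and 60.8 CPM and Ass1, of the arginine pathway, at 365 and 214 CPM. Miox and Keg1, among others, also served to name the class. Since axis genes differed in both directions, a bin need not hold cells of the same state in the 2 libraries.

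Outside the tubule few of the genes reached the minimum level. In macrophage-like cells 3 did and 2 were higher in the floxed library, against 2.04% of all genes higher and 3.25% lower there. Slc7a7 was at 25.7 CPM in control and 77.1 CPM in floxed cells, and Slc7a8 at 25.7 and 73.4 CPM. Among ureteric bud and collecting duct-like cells 4 did and 2 were higher, against 2.5% of all genes higher and 1.76% lower there. These were Slc7a8, at 19.3 and 41.7 CPM, and Slc15a2, at 9.12 and 26.4 CPM. Among loop and distal tubule-like cells 4 did and Slc4a4 was lower, at 37.6 and 14.3 CPM, against 2.2% of all genes lower and 1.55% higher there. Among committed nephron-like, podocyte-like and stroma-like cells 3, 3 and 2 did, and none passed in either direction. All genes there were higher in 1.27%, 1.21% and 1.58% of cases and lower in 0.798%, 1.54% and 1.97%.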

How the data were processed

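Dissociated whole kidneys were profiled on the 10x Chromium platform with 3′ version 3 chemistry, per the labels' protocols. The authors deposited 1 matrix of whole-number UMI counts per library, not normalised. Per the submitters' processing notes, Cell Ranger 6.0.2 and mm10 were used, and the matrices were written by version 6.0.1, per the file headers. The annotation release is not given in the sources used here. Depth was 197745868 UMIs over 25736 barcodes in the control and 115427704 UMIs over 22543 barcodes in the floxed library.

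Cells were kept from 1000 UMIs and 500 genes upward, with a mitochondrial share below 15%. The 8% of barcodes with the highest scrublet scores were then removed from each library (1695 and 1252), and the kept cells had medians of 5990 and 4776 UMIs. Both libraries were clustered together with 2000 variable genes that held none of the 33, 30 principal components, 15 neighbours and Leiden resolution 1 (scanpy 1.11.5, scikit-learn 1.9.0, igraph 0.11.9). Clusters were named from marker lists by a score of at least 0.5, with a lead of 0.5 over the next class, thresholds taken from an earlier analysis of these data. Shallow clusters scoring under 2 were left unnamed after they had been seen, and 5 clusters (2500 control and 2097 floxed cells) carry no name.

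For each class, UMI counts of a library were added up and given as CPM of the class total. A 3′ count does not grow with transcript length. Ratios have exact conditional binomial 95% intervals, levels Poisson ones and shares Clopper-Pearson ones, while the limit for a share of 0 is 3 counts of the total. The size rule, at least 25 CPM and an interval beyond 1.5-fold, was run over all genes, and the ratio, its interval and the rule were tested on simulated counts. The thinned axis used cells with at least 2000 UMIs. All 33 genes are named. Of the other lists, those past the rule are named, at most 3 in each direction. The genes, lists, rules and alternatives were chosen with earlier results of these data known. Coordinates were matched by symbol for 33 of 33 genes, and coordinates and promoters are those of RefSeq on GRCm38. Alternatives changed the filters, clustering, scaling (TMM, edgeR 4.0.16), axis, bins and anchors. Those that subtract a level or average bins have no interval of their own, and for them the main interval was shifted by the ratio. Software versions were pandas 2.3.3, scipy 1.17.1, numpy 2.4.6, matplotlib 3.10.9 and Python 3.11.15.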

Additional observations from a re-analysis of the deposited data

Results flagged for a closer look

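Slc7a8 differed between the libraries in opposite directions in different classes. Its log2 ratio, floxed over control, was -1.11 in proximal tubule-like cells, 1.51 among macrophage-like cells and 1.11 among ureteric bud and collecting duct-like cells. Each of the 3 values passed the size rule in its own class. The tubule value comes from 787 control and 176 floxed UMIs, the macrophage value from 77 and 139 UMIs, and the ureteric bud and collecting duct value from 277 and 469 UMIs. With 1 library per genotype the difference between classes was not tested.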

How the results depend on the processing

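Over 10 alternatives to the genotype comparison, no ratio that had passed the rule turned its direction, and none of the genes was higher in the floxed library by the rule in any of them. Slc17a1 was between 4.76-fold and 5.78-fold lower, Slc22a6 between 2.94-fold and 3.23-fold and Slc7a8 between 1.98-fold and 2.39-fold. The number of lower genes went from 3 to 7 with a mitochondrial limit of 30%, to 6 at Leiden resolution 0.5, to 6 with the genes allowed into the clustering, to 5 with no removal of doublets and to 6 with no minimum level. Added under these were Cubn and Slc4a4 (3 alternatives each), Slc5a1 (4), Slc17a3 (2), Slc3a1, Slc6a19 and Slc13a3 (1 each). With a 2-fold rule Slc7a8 no longer passed, and 2 genes were lower. Early genes went from 0 to 2 and late genes from 24 to 5 with no removal of doublets, and early to 1 and late to 10 both with the genes allowed into the clustering and with the brush border axis. The class was smaller under the first pair of these settings, and the cause was not tested. In the segment contrast, genes higher on the early side went from 3 to 5 with 3 anchors and to 1 with all cells of the class, and those higher on the late side from 0 to 9 with 3 anchors. Genes highest in proximal tubule-like cells numbered 29, or 31 with no removal of doublets.

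No paired analysis was possible because each genotype has 1 library. For the same reason no library could be left out, and the intervals do not cover variation between animals. Depth limits the sparse genes: Slc34a3, Slc5a2, Slc6a19, Slc13a3 and Slc9a3 had 11, 124, 154, 150 and 119 UMIs in the control class and 2, 32, 19, 24 and 39 in the floxed class.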
